A study of Mus musculus with 44 samples.

Results

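The distant contacts of the β-globin promoters are their interactions with chromosome 7 outside the 1 Mb on either side of 110.97 Mb, the centre of the viewpoint region in mm9 coordinates. Restriction fragments were included when their midpoint lay below 109.97 Mb or above 111.97 Mb. This gave 94463 of the 573960 fragments in the β-globin table of the fixation experiment, which fall into 143 bins of 1 Mb, 101 on the lower-coordinate side and 42 on the higher-coordinate side. They held 256411 unique interactions over 14 libraries. The rule used position only and no measured value.

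The β-globin genes are highly expressed in erythroid cells under the control of a group of enhancers on the same chromosome, the locus control region, and lie among olfactory receptor genes that are silent in these cells. In a nucleus, each chromosome occupies its own territory, so that 2 sequences on the same chromosome meet more often than 2 on different chromosomes, and their contact frequency falls with the distance between them. In 3C methods, DNA is cross-linked with formaldehyde, digested and religated, and a junction between fragments from distant parts of the genome can come from contact in the nucleus or from random ligation of DNA in solution. A sample that was never cross-linked gives the second kind in the main, and serves as a baseline for weak contacts far from a viewpoint.

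Ter-119+ erythroid cells, red cell precursors, were taken from the spleen of female mice of the C57BL/6 strain that had received phenylhydrazine, which destroys red cells and so fills the spleen with erythroid cells. Aliquots of equal cell number, selected with magnetic beads, were left unfixed or fixed for 10 min with 0.5%, 1%, 2%, 3%, 4% or 5% formaldehyde, with 2 technical replicates at each concentration. All libraries were made by DpnII digestion, ligation and capture with oligonucleotides for promoters at 3 loci, those of β-globin, α-globin and Slc25a37. Hbb-b1 and Hbb-b2, the 2 adult β-globin genes captured, were pooled. The unfixed sample was also homogenised in the volume of water needed for digestion and a centrifugation step was left out, so that the absence of formaldehyde and this handling cannot be told apart. The files hold no gene expression, and the labelled cell type could not be checked against markers.

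Depth ranged from 40235 to 155233 unique β-globin interactions per library, with 121729 and 119945 in the unfixed libraries. Libraries of 3% to 5% formaldehyde were shallower, 40235 to 57640, than those of 0.5% to 2%, 94418 to 155233. The 95% Wilson interval of a library's share of distant contacts was at most ± 0.43 percentage points, and covers counting error only. Since the replicates are technical, no p-value below covers biological spread. Tests over libraries, also those of single bins, use the spread between such samples. Tests over concentrations use the means of the 2 replicates, so that the spread between replicates does not enter them.

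In fixed libraries more of the interactions lay on chromosome 7, both close to the viewpoint and far from it, and fewer on other chromosomes. In the unfixed libraries, 5.73% and 5.94% of all unique interactions were distant contacts on chromosome 7. This share was 19.2% and 15.0% at 0.5% formaldehyde, 22.0% and 26.5% at 1%, and 27.8% and 27.2% at 2%. At 3% it was 26.8% and 27.2%, at 4% it was 26.2% and 27.1%, and at 5% it was 26.7% and 27.2%. Every fixed library was above both unfixed ones, and from 2% onwards all 8 libraries lay between 26.2% and 27.8%. The 12 fixed libraries were on average 19.1 percentage points above the unfixed ones (exact two-sided permutation test over libraries, p = 0.011). The p-value adjusted over 6 tests was 0.022, and 0.011 is the smallest that the 91 choices of 2 of 14 libraries allow. Here and below, this test takes technical replicates as separate units, although only 1 of the 7 concentrations is unfixed. Over the 7 concentrations the share rose by 3.17 percentage points per percent formaldehyde (exact permutation test, p = 0.0403, adjusted p = 0.0403). Over the 6 fixed concentrations alone this slope was 1.58 (exact p = 0.0917), and without 1% formaldehyde replicate 1 it was 3.03 over all 7 (exact p = 0.0835).

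The distant contacts levelled off where the interactions within 1 Mb of the viewpoint did not. Interactions within this window made up 0.29% ± 0.024 (SD, n = 2) of the total without fixation, 36.0% ± 3.6 at 2% formaldehyde and 42.8% ± 0.91 at 5%, while interactions with other chromosomes fell from 93.9% ± 0.17 to 36.5% ± 3.1 and 30.3% ± 0.56. As a share of chromosome 7 alone, the distant contacts therefore went the other way, from 95.3% ± 0.26 without fixation to 43.4% ± 2.8 at 2% and 38.6% ± 0.81 at 5%. On this scale the slope over concentrations was -8.65 percentage points per percent formaldehyde (exact permutation test, p = 0.0147). The direction of a change in distant contacts thus depends on the interactions they are counted against.

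**Figure D1:**
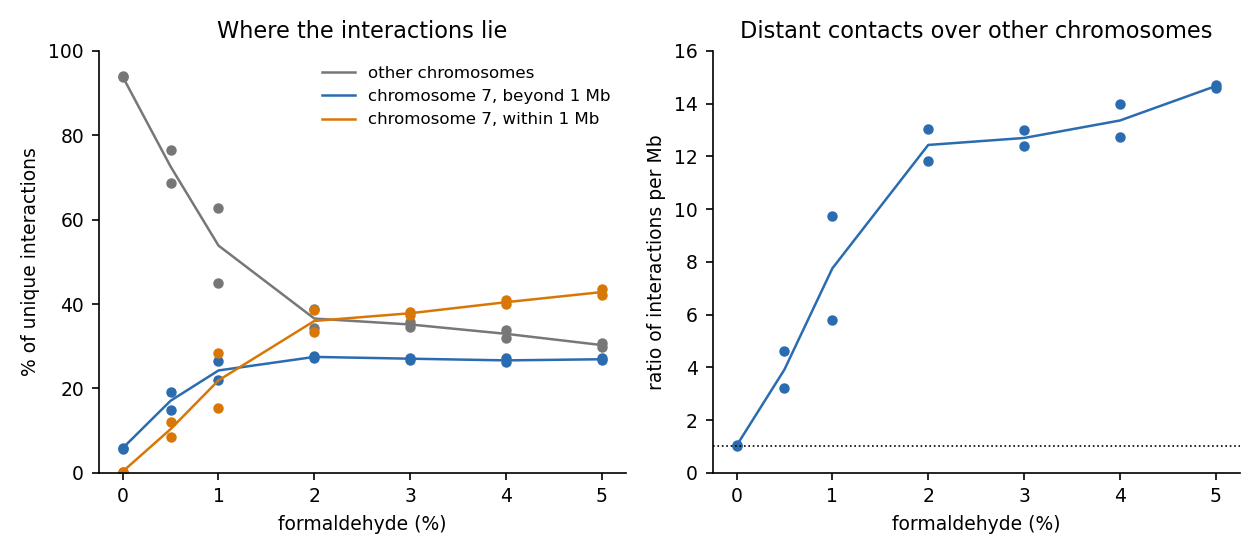
Left, percentage of unique β-globin interactions in each of 3 classes against formaldehyde concentration, and right, the ratio of distant contacts per Mb of chromosome 7 to interactions per Mb of other chromosomes, with a dotted line at a ratio of 1. Points are libraries (2 per concentration) and lines join the means; distant contacts stay near 27% from 2% formaldehyde on, while the ratio goes on to 14.7 at 5%.

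Counted per Mb of sequence, unfixed libraries met distant parts of chromosome 7 about as often as other chromosomes. Their ratio of distant interactions per Mb to those per Mb of other chromosomes was 1.01 and 1.04. The 12 fixed libraries had ratios from 3.22 to 14.7 with a median of 12.6. The lowest were the libraries of 0.5% formaldehyde (4.61 and 3.22) and 1% (5.78 and 9.72), whose replicates also differed most. No fixed library overlapped the unfixed ones, and the mean log2 ratio was higher by 3.26 (exact permutation test, p = 0.011, adjusted p = 0.022). It rose by 0.60 log2 units per percent formaldehyde over the 7 concentrations (exact permutation test, p = 0.0161, adjusted p = 0.0221). Over the 6 fixed concentrations alone it rose by 0.36 (exact permutation test, p = 0.0222). Above 2%, distant contacts per Mb kept their level (186 per 100000 interactions at 2% and 182 at 5%) and the ratio rose through the denominator, as interactions per Mb of other chromosomes went from 15.0 to 12.4.

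In fixed libraries the distant contacts fell with distance more steeply than in unfixed ones. Between 1 and 2 Mb on the lower side, the unfixed libraries had 51.8 and 66.7 interactions per Mb per 100000. The fixed libraries had 617 at the lowest, a median of 1885 and 2043 at the highest. This was a 28.3-fold difference in means, and the groups did not overlap. The fold fell to 18.4 at 2 to 4 Mb, 9.54 at 4 to 8 Mb, 6.32 at 8 to 16 Mb, 4.62 at 16 to 32 Mb and 1.55 at 32 to 64 Mb. In the outermost band, 64 to 108 Mb from the viewpoint, fixed libraries had 21.3 to 30.3 interactions per Mb and unfixed ones 31.5 and 32.8. There the fixed libraries were below the unfixed ones, at a fold of 0.859. Their median of 28.0 per Mb stood beside a median of 14.4 per Mb with other chromosomes. At 0.5% formaldehyde replicate 2 the level with other chromosomes, 31.4, was the higher.

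On the higher side the contacts started lower and fell less. The fold of fixed over unfixed means was 15.7 at 1 to 2 Mb, 9.75 at 2 to 4 Mb and 9.82 at 4 to 8 Mb. It was 5.57 at 8 to 16 Mb and 5.88 at 16 to 32 Mb, where the fixed median was 299 interactions per Mb on this side and 202 on the lower side. The contacts on the higher side thus did not fall between 8 and 32 Mb.

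The decay was summarised as the slope of log2 interactions per Mb on log2 distance over 1 to 32 Mb with both sides together, for which a slope of -1 means that contacts halve when the distance doubles. Unfixed libraries had slopes of -0.063 and -0.12. Fixed libraries ranged from -0.45 to -0.71 with a median of -0.65. All 12 fixed libraries were steeper than both unfixed ones, by 0.53 on average (difference -0.53, exact permutation test, p = 0.011, adjusted p = 0.022). The slope also became steeper with concentration, by -0.089 per percent formaldehyde (exact permutation test, p = 0.0185, adjusted p = 0.0221). Over the 6 fixed concentrations alone this was -0.046 (exact permutation test, p = 0.0125). The mean slope was -0.093 at 0%, -0.48 at 0.5%, -0.56 at 1% and -0.62 at 2%. It was -0.68 at 3%, -0.71 at 4% and -0.69 at 5%, with no steady change among these. The libraries of 3% to 5% were taken as a separate set, as described below. The part of the set in this trend, and in those of the share and the ratio above, was not tested. On the lower side alone the fixed slopes ran from -0.63 to -0.92, and on the higher side from -0.23 to -0.47, with no overlap between the sides.

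**Figure D2:**
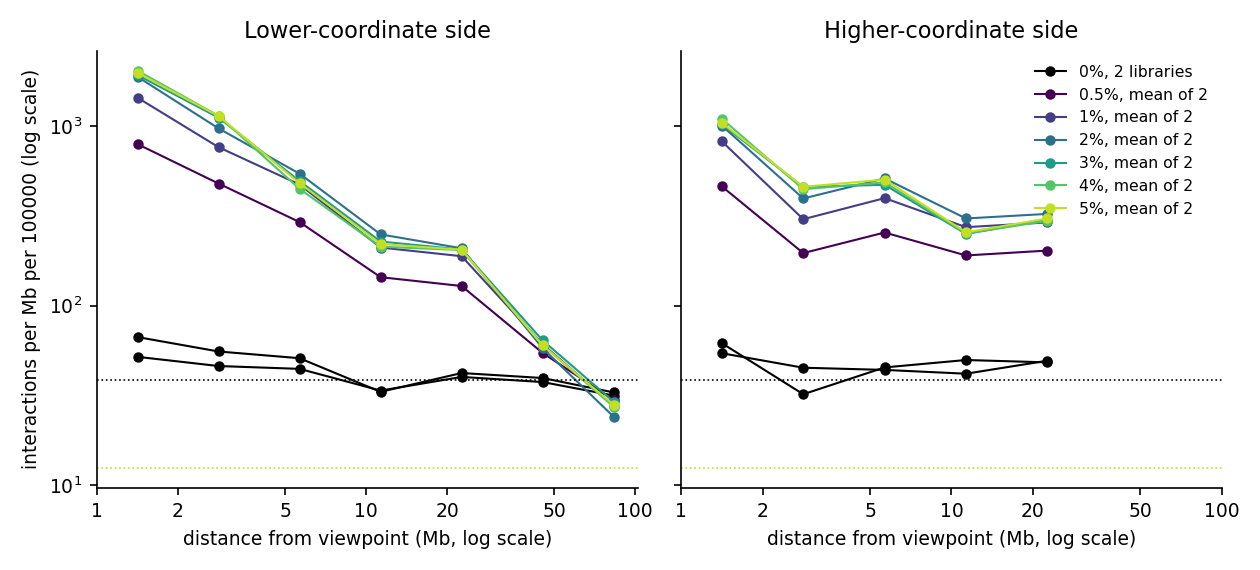
Interactions per Mb per 100000 unique interactions (log scale) against distance from the viewpoint (log scale, at the middle of each distance band), for the lower-coordinate side (left) and the higher-coordinate side (right). Black lines are the 2 unfixed libraries, coloured lines the means of 2 libraries per concentration, and dotted lines the level per Mb of other chromosomes at 0% (black) and 5% (yellow); fixed libraries fall towards the unfixed level at the far end of the lower side and stay above it on the higher side.

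In single 1 Mb bins the same change was seen against a much flatter baseline. Unfixed means on the lower side still fell, from 59.2 interactions per Mb per 100000 at 1 to 2 Mb to 32.1 at 64 to 108 Mb. The level of a bin is its interactions per 100000 unique interactions of the library, and the fit of fixed against unfixed libraries was made on the counts of all 2520 bins of the genome that passed the filter, 137 of them distant bins. Of these 137, 86 were higher after fixation and 16 were lower (edgeR quasi-likelihood test, Benjamini-Hochberg adjusted p under 0.05). Over all bins tested, 4.01% were called higher and 86.3% lower. The median log2 fold change was 1.06 over the distant bins and -1.46 over all bins tested. In 77 of the 137 distant bins both unfixed libraries were below all 12 fixed ones, against 3.37% of all bins tested, and in 10 both were above all fixed ones, against 48.5%. Outside the distant bins, 12 of 2380 bins on other chromosomes and all 3 tested bins near the viewpoint were called higher.

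These directions are relative to all interactions of a library, among which those with other chromosomes lost most. The median bin of the other chromosomes had a log2 fold change of -1.49. With TMM factors, a scaling that centres on the bulk of the bins, this median moved to -0.23, and 121 of the 137 distant bins were then called higher and 0 lower (over all bins, 15.4% and 7.46%). The 16 bins called lower thus lost this call with TMM factors, and 1 of them, at 27 Mb, was then called higher (log2 fold change 0.73, edgeR adjusted p = 0.0217).

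The number of bins that were higher fell with distance on the lower side and not on the higher side. On the lower side all 7 tested bins with a centre between 1 and 8 Mb from the viewpoint were higher, with a median log2 fold change of 3.54, as were 23 of 24 between 8 and 32 Mb (median 1.78), 12 of 32 between 32 and 64 Mb (median 0.29) and 2 of 32 beyond (median -0.37). Here 4 and 12 bins in the last 2 bands were lower. On the higher side all 42 tested bins were higher up to the end of the chromosome, with medians of 3.50 between 1 and 8 Mb, 2.45 between 8 and 32 Mb and 1.51 beyond 32 Mb.

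**Figure D3:**
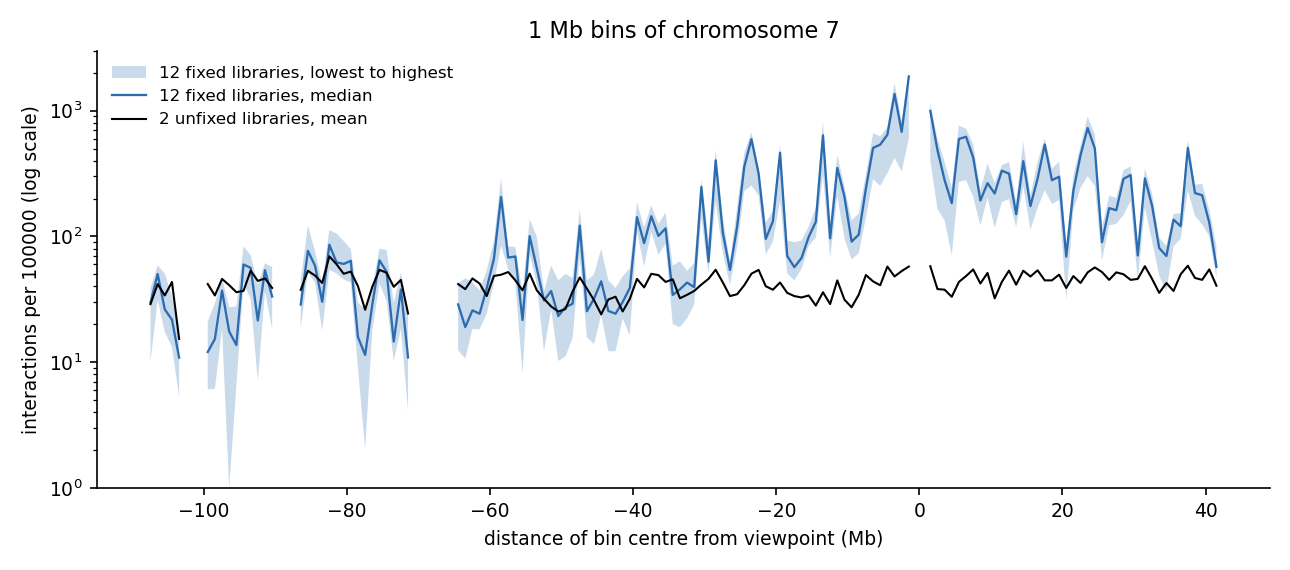
Level of each 1 Mb bin of chromosome 7 (interactions per 100000, log scale) against the distance of its centre from the viewpoint in Mb, negative for the lower side. The blue line is the median and the band the range of 12 fixed libraries, and the black line the mean of 2 unfixed libraries. Only the 137 tested bins are drawn, without the bin of which 30 kb count as distant and with a level of 0 drawn at 1. The fixed profile has sharp peaks beside a much flatter unfixed baseline.

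The highest level was next to the viewpoint window on the lower side. The bin at 109 Mb, of which the part below 109.97 Mb counts as distant, had 50.1 and 65.0 interactions per 100000 in the unfixed libraries. Its fixed libraries had 604 at the lowest, a median of 1871 and 2036 at the highest, without overlap. This was the largest change of all distant bins (log2 fold change 4.78, SE 0.27, edgeR adjusted p = 1.33e-31). On the other side only 30 kb of the bin at 111 Mb is distant, and it held 3.29 and 0.834 interactions per 100000 without fixation. The fixed libraries ran from 1.06 to 46.3 with a median of 16.2 and overlapped the unfixed ones (log2 fold change 2.85, SE 0.69, edgeR adjusted p = 0.000129). The first full bin on this side, at 112 Mb, had 60.8 and 55.0 without fixation and from 404 to 1145 with a median of 996 after it, again without overlap (3.92, SE 0.23, edgeR adjusted p = 4.1e-30).

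Between the nearest bins, levels did not follow distance alone. The bin at 107 Mb went from 43.5 and 52.5 to between 422 and 1656, with a median of 1361. The bin at 108 Mb, which is closer to the viewpoint, went from 46.8 and 59.2 to between 329 and 831, with a median of 679. Their log2 fold changes were 4.57 (SE 0.26) and 3.54 (SE 0.22), and neither bin overlapped the unfixed libraries. The bin at 105 Mb had 49.3 and 32.5 without fixation and a fixed median of 537, a log2 fold change of 3.60 (SE 0.22).

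High bins also lay much farther out. At 97 Mb, 13.5 Mb from the viewpoint, the unfixed libraries had 39.4 and 32.5 interactions per 100000. The fixed ones had 312 at the lowest, a median of 638 and 817 at the highest. The groups did not overlap, and the log2 fold change of 4.06 (SE 0.23, edgeR adjusted p = 4.54e-31) was the third largest of all distant bins. Its neighbours at 96 and 98 Mb, looked up after the values were seen, had fixed medians of 131 and 96.6 at unfixed levels of 24.6 to 31.7.

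On the higher side, the bin at 134 Mb had 41.9 and 61.7 interactions per 100000 without fixation. After it, the libraries had between 302 and 899 with a median of 729, above both unfixed ones. Its log2 fold change was 3.67 (SE 0.23) although its centre is 23.5 Mb from the viewpoint. The bin at 116 Mb went from 43.5 and 43.4 to between 272 and 762 with a median of 596 (log2 fold change 3.69, SE 0.22). By contrast the bins at 131 and 136 Mb, also looked up afterwards, reached fixed medians of 69.1 and 90.0 at unfixed levels of 38.6 to 55.9. Neither adjoins the bin at 134 Mb, and the bins that do are not given here.

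Far out on the lower side, some bins stood above their neighbours. Of 64 tested bins beyond 32 Mb, 14 were higher. The 5 bins from 71 to 75 Mb rose together, with fixed medians of 88.4 to 145 against 37.8 to 55.9 without fixation. The bin at 63 Mb went from 47.6 and 46.7 to a median of 122. The bin at 52 Mb, 58.5 Mb from the viewpoint, went from 60.0 and 39.2 to between 84.4 and 291 with a median of 206 and no overlap (log2 fold change 1.97, SE 0.20, edgeR adjusted p = 3.29e-15). The farthest bin that was higher, at 16 Mb, had 29.6 and 44.2 without fixation and 43.1 to 83.2 with it, so that its groups overlapped (0.65, SE 0.22, edgeR adjusted p = 0.00406).

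The bins that were lower lay at 6 to 55 Mb, 55.5 to 104 Mb from the viewpoint, all on the lower side. The largest change was at 11 Mb, where the unfixed libraries had 36.1 and 47.5 interactions per 100000. The fixed libraries had 6.09 at the lowest, a median of 12.0 and 21.1 at the highest, below both unfixed ones (log2 fold change -1.82, SE 0.35, edgeR adjusted p = 5.51e-06). With TMM factors its log2 fold change was -0.55 (edgeR adjusted p = 0.197). The other 7 with the largest changes, at 12, 14, 15, 18, 32, 33 and 37 Mb, had fixed medians of 11.4 to 21.4 against unfixed levels of 22.2 to 44.4, with log2 fold changes of -1.05 to -1.49. With TMM factors these ran from -0.22 to 0.22 and none was called, so 4 of them (12, 18, 33 and 37 Mb) changed sign. For comparison, the 12 fixed libraries had 12.3 to 31.4 interactions per Mb per 100000 with other chromosomes.

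At the ends of the chromosome, the last bin was called higher and the first bin was not called. The bin at 3 Mb had 31.2 and 26.7 interactions per 100000 without fixation and 10.1 to 39.1 with it, so that its groups overlapped (log2 fold change -0.01, SE 0.27, edgeR adjusted p = 0.972). The bin at 152 Mb had 43.5 and 37.5 without fixation and 46.8 to 83.3 with it, above both unfixed ones (log2 fold change 0.58, SE 0.21, edgeR adjusted p = 0.0094).

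The form of the profile was examined by giving each bin as a share of the library's distant contacts, so that the overall gain is removed. On this scale 36 of the 137 distant bins were higher in fixed libraries and 82 were lower (edgeR, adjusted p under 0.05), where 1.55% of all bins tested were higher and 97.7% lower. The median log2 fold change was -1.003 over the distant bins and -3.51 over all bins tested, since all 2380 tested bins of other chromosomes fall when counted against distant contacts. The 36 bins had a median distance of 13.0 Mb and reached no farther than 37.5 Mb from the viewpoint, 15 of them on the lower side and 21 on the higher side. The 82 bins that were lower had a median distance of 54.0 Mb, with 73 on the lower side. With TMM factors, which return to the scale of the other chromosomes, 121 were higher and 0 lower (over all bins, 14.6% and 9.52%).

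The 8 bins with the largest rise were those with the largest rise in level. The 2 fits differ in the total that a bin is counted against, which shifts all bins by nearly the same amount. The order of the bins therefore follows from the level fit and is no separate result. The bin at 109 Mb took 874 and 1095 of 100000 distant contacts without fixation and between 4037 and 7738 with it, a median of 6873. The bin at 107 Mb went from 760 and 884 to between 2823 and 6079, a median of 4998. Their log2 fold changes were 2.70 (SE 0.14) and 2.49 (SE 0.14), and the groups did not overlap. The bins at 97 and 112 Mb followed with 1.98 (SE 0.15) and 1.84 (SE 0.14). Those at 105, 108, 116 and 134 Mb had 1.47 to 1.61. Together the 6 bins of highest level, at 97, 107, 108, 109, 112 and 134 Mb, took 4.93% and 5.49% of the distant contacts without fixation and 15.9% to 25.6% with it (median 23.9%). These bins were chosen by their fixed level, so this difference is a description.

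**Figure D4:**
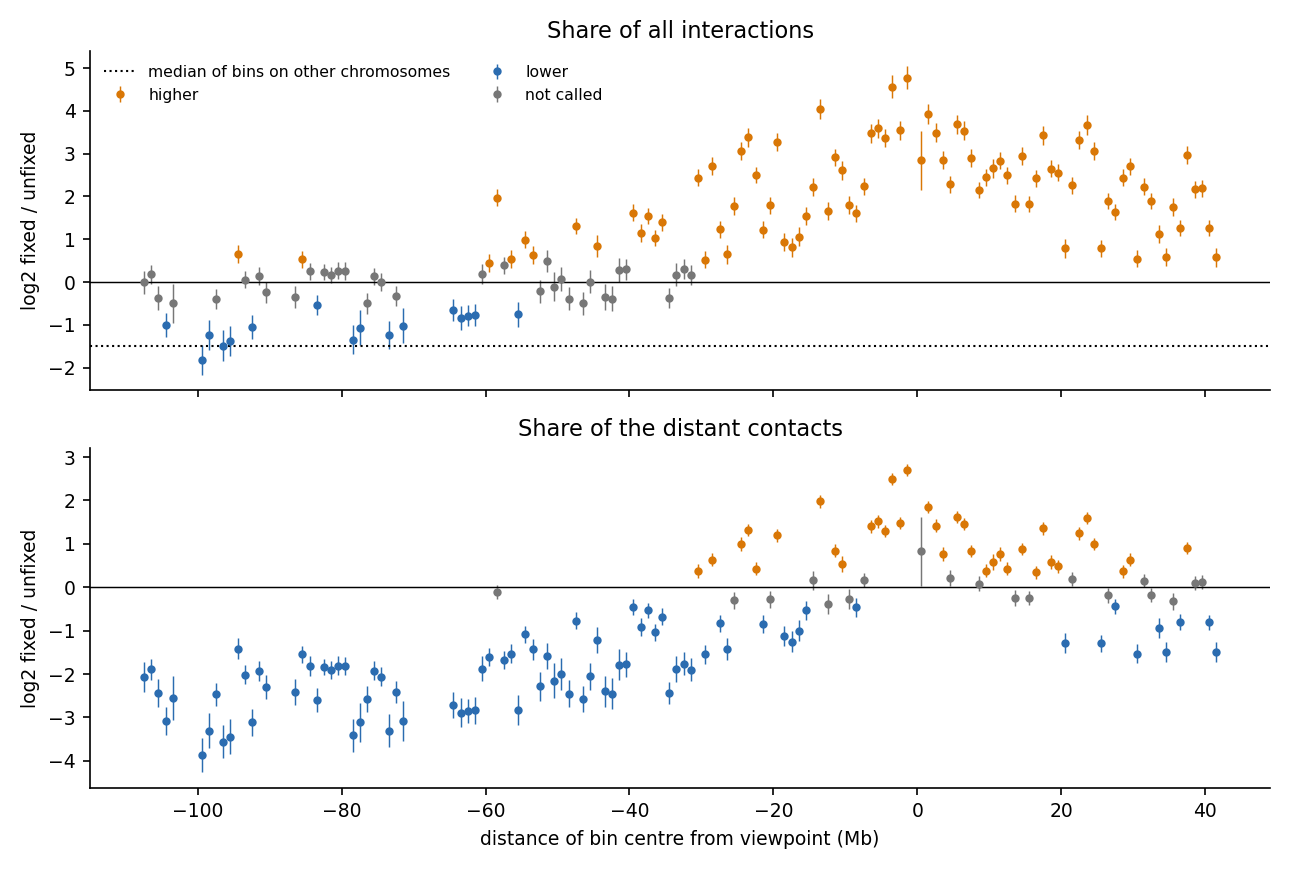
Log2 fold change of fixed over unfixed libraries for the 137 tested distant bins (points, with SE from the edgeR fit) against the distance of the bin centre from the viewpoint in Mb, negative for the lower side, on the share of all interactions (top) and the share of distant contacts (bottom). Orange bins were higher, blue bins lower and grey bins not called at an adjusted p under 0.05, and the dotted line in the top panel is the median of bins on other chromosomes, at -1.49.

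Across bins, the levels of fixed replicates were more highly correlated than those of the unfixed replicates. Over the 137 tested distant bins, the levels of 2 fixed replicates had Pearson's r between 0.986 and 0.994, and the mean levels at 0.5% and 5% formaldehyde had r = 0.967. The 2 unfixed replicates had r = 0.555 with each other, and mean fixed and unfixed levels r = 0.409. These are descriptions across bins, which share distance, sequence content and library depth. Pearson's r also depends on the range of levels, which was narrow in the unfixed libraries. The values therefore do not compare how reproducible fixed and unfixed libraries were. On log2 scales fixed levels had r = -0.685 with distance and unfixed levels r = 0.141.

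Within this common form, bins near the viewpoint and some farther out rose with formaldehyde. In a fit of the level on percent formaldehyde over the 12 fixed libraries, 26 of 136 tested distant bins rose and 2 fell (edgeR, adjusted p under 0.05), where 1.38% of all bins tested rose and 65.0% fell. The 26 had a median distance of 13.5 Mb and reached as far as 85.5 Mb, with 7 of them within 4 Mb of the viewpoint. As a share of distant contacts, 12 rose and 45 fell, where 0.667% of all bins tested rose and 86.7% fell. The 12 had a median distance of 3.5 Mb, with 7 of them within 4 Mb of the viewpoint, and the 45 had a median distance of 35.5 Mb and none within 4 Mb. With TMM factors 79 bins rose and 0 fell on either scale, where 6.67% of all bins rose and 2.14% fell.

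Among single bins the smallest adjusted p for a trend in level was at 115 Mb. Its mean level was 76.9 interactions per 100000 at 0.5% formaldehyde, 118 at 1%, 167 at 2%, 238 at 3%, 208 at 4% and 235 at 5%. It was higher at each of 3% to 5% than at each lower concentration, with a slope of 0.32 log2 units per percent (SE 0.052, edgeR adjusted p = 4.69e-07), and as a share of distant contacts its slope was 0.22 (SE 0.041, edgeR adjusted p = 1e-05). The bin at 113 Mb had mean levels from 219 at 0.5% to 565 at 4%, a slope of 0.24 (SE 0.057, edgeR adjusted p = 0.000648). The bins at 52 and 102 Mb each had a slope of 0.21 (edgeR adjusted p = 0.000956 and 0.000712). At 107 and 109 Mb the share of distant contacts rose by 0.17 (SE 0.028) and 0.13 (SE 0.029) log2 units per percent.

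The 2 bins whose level fell were sparse. The bin at 38 Mb had mean levels of 38.5, 47.5, 46.9, 37.8, 23.9 and 26.2 interactions per 100000 from 0.5% to 5% formaldehyde (slope -0.18, SE 0.070, edgeR adjusted p = 0.0193). The bin at 14 Mb had 21.8, 22.9, 13.2, 21.7, 7.09 and 9.13 (slope -0.31, SE 0.13, edgeR adjusted p = 0.0337). As a share of distant contacts the bins with the smallest adjusted p that fell were at 38, 103, 125 and 138 Mb, with slopes of -0.29, -0.12, -0.099 and -0.15. Among these, the bin at 125 Mb had 1735 of 100000 distant contacts at 0.5%, 1962 at 1% and 1999 at 2%. At 3%, 4% and 5% it had 1505, 1491 and 1427. Most of its fall thus lay between 2% and 3%, where the 2 sets of libraries described below meet.

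The trend over bins spans 2 sets of libraries, and its number of calls depends on the libraries of low concentration. Libraries of 0% to 2% and of 3% to 5% have titles of the same form but sample descriptions of different form. They also differ in depth, and were taken as 2 sets. Within 3% to 5% no bin rose or fell on either scale (0 of 127 tested distant bins by edgeR), while within 0.5% to 2% the level of 36 rose and of 6 fell, and the share of distant contacts of 12 rose and of 47 fell. In simulated counts for all 12 fixed libraries, the fit found 0 of 200 bins changed by 0.1 log2 units per percent, and 55 of 200 changed by 0.2. These 200 were drawn from all 2520 bins, of which 2380 lie on other chromosomes, so they do not give the sensitivity in distant bins. As a share of distant contacts, the bins at 112 and 125 Mb were called at slopes of 0.098 and -0.099. The libraries of 3% to 5% are fewer and shallower, so that the lack of calls among them does not show that a trend is absent. Without 0.5% formaldehyde replicate 1, 11 levels rose, and without replicate 2, 15 rose; the shares that fell were then 26 and 22. The part of the set, of depth and of the 0.5% replicates in these trends was not tested.

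**Figure D5:**
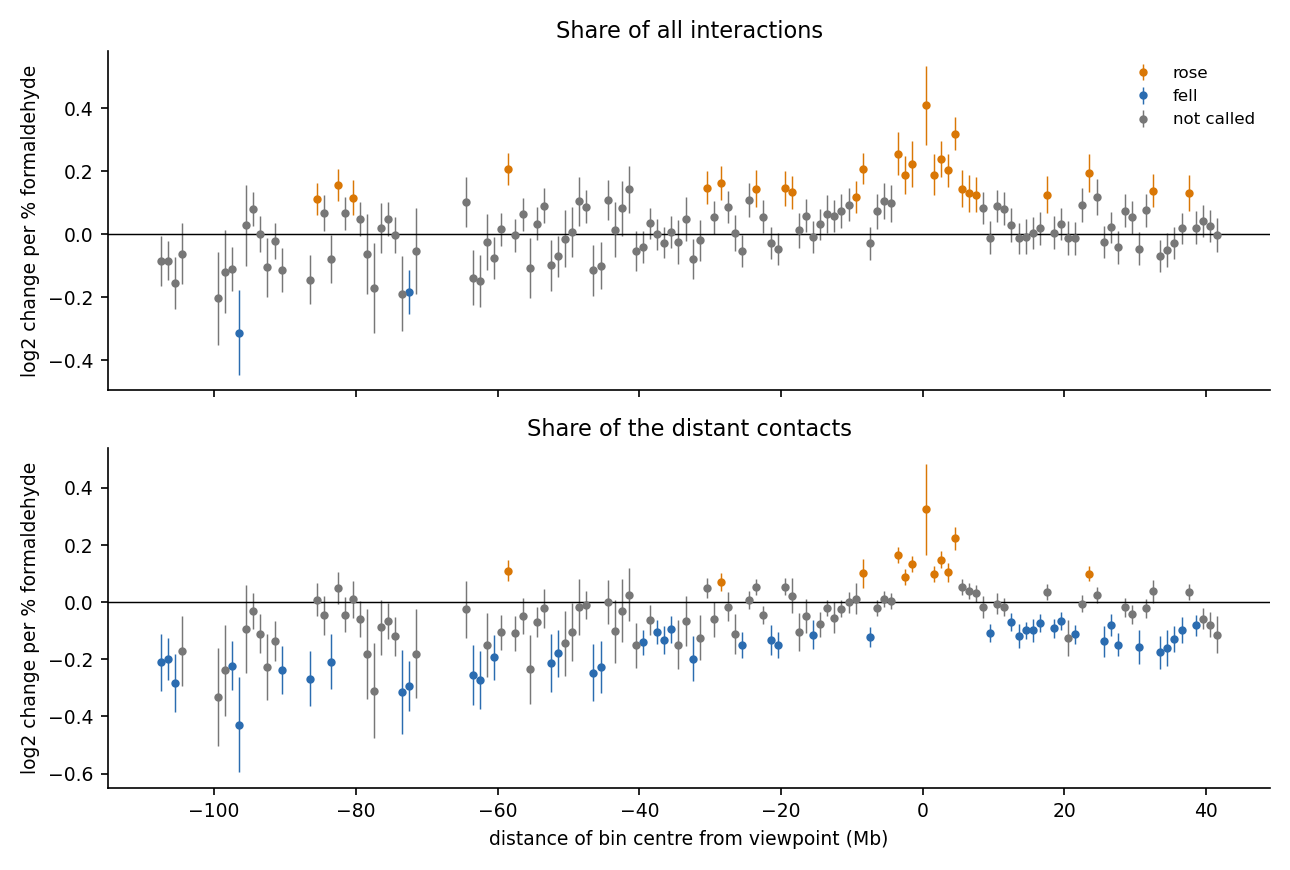
Log2 change per percent formaldehyde over the 12 fixed libraries for the tested distant bins (points, with SE from the edgeR fit) against the distance of the bin centre from the viewpoint in Mb, negative for the lower side, on the share of all interactions (top) and the share of distant contacts (bottom). Orange bins rose, blue bins fell and grey bins were not called at an adjusted p under 0.05; the bins closest to the viewpoint lie above 0 in both panels.

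Single restriction fragments far from the viewpoint were sparse. Of the 94463 distant fragments, 40.8% held 1 interaction over the 14 libraries, the median was 2 and the highest 102. Only 5360 and 5372 of them held any interaction in the 2 unfixed libraries, so that a count of 0 there is usual for a distant fragment. The 6 fragments with the highest mean level in fixed libraries were chosen by that level, so that their values, and the folds over unfixed libraries below, are descriptions. They lay in 3 places, at chr7:128123058-128125340, chr7:107613575-107615566 and chr7:147659332-147659479 (mm9). Genes at these places are not given here, since no annotation of this build was used.

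At 128 Mb, 3 of the 6 fragments lay within 2.3 kb. The fragment from 128123689 to 128124195 had 102 interactions in 11 of 12 fixed libraries and 0 in the unfixed ones, and it had 9.43 interactions per 100000 in the median fixed library and 38.6 in the highest. Its mean of 12.9 was at least 10.4-fold higher than unfixed, against a limit of 1.24 per 100000 that a count of 0 allows over both unfixed libraries together. Its neighbours had 77 interactions in 11 libraries and 63 in 12, and the 3 together held 5.00% of the fixed interactions of their bin. At 107 Mb, 2 fragments had 77 interactions in 11 fixed libraries and 71 in 10, with 0 in the unfixed ones, at least 7.09-fold and 6.63-fold higher.

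The fragment at 147659332 to 147659479, 148 bp long, differed from the others in where it was found. It had 63 interactions, all of them in the 6 libraries of 3% to 5% formaldehyde (20.6 per 100000 there), with 0 in the 6 of 0.5% to 2%, 0 in the unfixed and 0 in the low-input libraries. The other 5 fragments had counts in 4 to 6 of the 6 libraries of 0.5% to 2% and in 6 of 6 of 3% to 5%, and 11 to 43 in the low-input libraries. From the α-globin and Slc25a37 viewpoints it held 0 interactions over 14 libraries each.

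The same bins were prominent in a separate set of libraries. For the low-input protocols, 18 libraries were made from 200, 100 or 50 ng of erythroid 3C library, with 3 replicates each, from cells fixed with 2% formaldehyde per the labels. Distant contacts were 28.4% ± 0.35 (SD, n = 3) of all interactions at 200 ng, 27.6% ± 0.56 at 100 ng and 24.6% ± 1.9 at 50 ng with LI-Capture-C, which uses sonication. With Tag-Capture-C, which uses a transposase, they were 31.3% ± 0.42, 30.8% ± 0.77 and 29.0% ± 1.2. As a share of chromosome 7 these were 43.7% to 44.0% and 46.7% to 49.4%, beside 43.4% at 2% formaldehyde in the fixation libraries. Mean levels over the 18 libraries had Pearson's r = 0.995 with those at 2% formaldehyde over 137 bins, as a description of bins that share sequence content and distance, and r = 0.411 with the unfixed ones. The bin at 97 Mb had from 658 to 960 interactions per 100000 in the 18 libraries with a median of 822, and the bin at 52 Mb from 96.4 to 488 with a median of 198.

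From the other viewpoints, distant contacts on the own chromosome also rose over those with other chromosomes. The log2 ratio of distant interactions per Mb to those per Mb of other chromosomes was 0.04 for β-globin, 0.25 for α-globin on chromosome 11 and -0.12 for Slc25a37, the mitochondrial iron importer gene, on chromosome 14 without fixation. At 5% formaldehyde it was 3.87, 4.02 and 4.03. The ratio of β-globin was below that of α-globin at 7 of 7 concentrations, by 0.19 on average (difference -0.19, exact paired permutation test, p = 0.0156, adjusted over 2 tests p = 0.0312). Against Slc25a37 it was lower at the 6 fixed concentrations and higher without fixation, on average by -0.16 (exact paired permutation test, p = 0.0625, adjusted p = 0.0625).

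The stretches of chromosome compared differ in how often any viewpoint met them. When the same ratio for each stretch, seen from the 2 viewpoints on other chromosomes, was subtracted (an adjustment chosen after the data were seen), β-globin was above α-globin by 0.16 (exact permutation test, p = 0.0469) and below Slc25a37 by 0.43 (difference -0.43, exact permutation test, p = 0.0312). The direction of the difference from α-globin therefore turned with this choice.

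Bins of chromosome 7 that gained contacts with β-globin beyond what their distance gives were also met more often from Slc25a37. After a straight line of log2 fixed over unfixed on log2 distance was removed from the β-globin bins, the remainder had Pearson's r = 0.734 over 137 bins with the same log2 change seen from Slc25a37 on another chromosome, and r = 0.314 with that seen from α-globin. Without removal of the line, the values were r = 0.500 for Slc25a37 and r = -0.056 for α-globin, so that they depend on this step. These are descriptions, in which the 3 viewpoints share the libraries and the sequence content of the bins.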

How the data were processed

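The authors counted unique interactions per DpnII restriction fragment, with PCR duplicates removed, and pooled the promoters of each globin pair. The deposited tables hold these raw counts. The submitters' processing notes name Trim Galore, Bowtie and mm9, without versions. The members, bins and lists were chosen with earlier results of these data known. Here, counts were summed (Python 3.11.15; pandas 2.3.3, NumPy 2.4.6, SciPy 1.17.1 for tests) and scaled to 100000 interactions per library. Shares, ratios and slopes were compared by exact permutation tests. Bins with a mean count of at least 10 were fitted with edgeR 4.0.16 in R 4.3.3, first tested on simulated data, with the library total or its distant total as offset and no TMM factors. Fixed groups were averaged against 0%. DESeq2 1.42.0 was an alternative. The fixed trend took replicates as separate samples. The other viewpoints were centred on their fragment with most interactions. Named were the 8 bins with the largest called change in each direction, the 4 of smallest adjusted p per trend, the 6 bins and 6 fragments of highest fixed level, and the edge bins. Low-input libraries of whole cells (α-globin) were not used here. Plots were drawn with matplotlib 3.10.9.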

Additional observations from a re-analysis of the deposited data

Results flagged for a closer look

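The difference in the log2 ratio of distant interactions per Mb to those per Mb of other chromosomes between the β-globin and α-globin viewpoints, -0.19 over the means of 7 concentrations (exact paired permutation test, adjusted p = 0.0312), stood out because 2 viewpoints differed under the same series of concentrations in 7 of 7 of them. Once the ratio from the other viewpoints was subtracted, an adjustment chosen after the data were seen, the difference turned to 0.16 (exact permutation test, p = 0.0469), with β-globin higher at 6 of 7 concentrations. Groups of 2 or 3 libraries are too small to look for single libraries that stand apart.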

How the results depend on the processing

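Without either unfixed library the exact test of fixed against unfixed cannot go below p = 0.0769, which it reached each time. Leaving out each library in turn, the rise of the share of distant contacts was 18.8 to 19.97 percentage points (18.96 and 19.2 without an unfixed library), the rise of the log2 ratio to other chromosomes 3.21 to 3.40 (3.23 and 3.29) and the difference in decay slope without an unfixed library -0.50 and -0.56. The slope of the share over concentrations was 2.99 to 3.34, and its call was lost without 1% formaldehyde replicate 1 (3.03) and over the 6 fixed concentrations (1.58). As a share of chromosome 7, distant contacts reversed (-48.7 percentage points for fixed against unfixed, -8.65 per percent formaldehyde). Within 0% to 2%, the 3 slopes were 10.2, 1.69 and -0.23 (exact p = 0.125, 0.0833 and 0.167); the 4 means already lay in order of concentration, so that with 24 orders the lost calls show no weaker slope. The difference from Slc25a37 ranged from -0.17 to -0.15 with one library left out, and passed without 0% replicate 1 (-0.162), without 2% replicate 2 (-0.165), over the 6 fixed concentrations (-0.21) and with the other viewpoints' ratio subtracted (-0.43), where the difference from α-globin reversed (0.16). The decay slope less the level of other chromosomes could not be computed for unfixed libraries.

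For the bins, numbers that were higher or lower are of edgeR calls. With 2 Mb bins, which are fewer by construction, the level was higher in 45 and lower in 9, the share of distant contacts higher in 18 and lower in 43, the trend in level rose in 17, and the trend in share rose in 6 and fell in 25. With TMM factors, 0 levels and 0 shares were lower, 121 shares were higher, and 79 rose and 0 fell in either trend. A model with 2 groups left 5 lower levels. Holm adjustment left 1 lower level, 2 and 4 rising bins and 0 falling in the 2 trends. With bins shifted by 500 kb, 1 level fell. With technical replicates summed, 14 levels rose and 20 shares fell. Within 0.5% to 2%, 6 levels fell, and within 3% to 5%, 0 rose or fell. With one library left out, lower levels numbered 10 (without either unfixed library) to 18, rising levels 11 to 31, falling levels 0 (without 4% replicate 1) to 3, and falling shares 22 to 52. Falling levels numbered 1 without 0.5% replicate 1 or 1% replicate 2. DESeq2 gave 85 and 13 for the level.

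Among the named bins, the bin at 3 Mb reversed in level (0.025 with 2 groups, 0.065 within 0% to 2%, 1.26 with TMM, -0.15 to 0.11 with one library left out). With TMM the level changes at 12, 18, 33 and 37 Mb became 0.029, 0.22, 0.19 and 0.017, and the share changes at 18 and 33 Mb 0.18 and 0.14. The level trend turned at 38 Mb (0.14 within 0.5% to 2%, 0.058 with TMM) and, within 3% to 5%, at 52 Mb (-0.098) and 115 Mb (-0.0052). The share trend turned with TMM at 38, 103, 125 and 138 Mb (0.058, 0.18, 0.20 and 0.18), within 0.5% to 2% at 103 and 125 Mb (0.078 and 0.11), and within 3% to 5% at 107 and 115 Mb (-0.0033 and -0.0011). Single bins have no value with 2 Mb or shifted bins. Except where stated, the cause was not tested.

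Replicate numbers did not pair the libraries: over 21 pairs of concentrations, deviations of same-numbered libraries correlated at -0.32 to 0.33 (137 bins), above 0.1 in 6. With the replicate block the level was higher in 86 bins and lower in 17, the share in 36 and 82, and 23 levels and 10 shares rose and 2 and 43 fell. Unfixed bins rest on 2 libraries, and their depth limits single fragments, for which a count of 0 allows 1.24 per 100000.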
